A study of Mus musculus with 16 samples.

Results

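The left and right medial prefrontal cortex (mPFC) of mice that were susceptible to social defeat were compared on 6 of the 16 arrays of the series, 3 of the left and 3 of the right side. The 6 arrays were chosen by their labels alone, as those of the left and of the right mPFC of susceptible mice. All mice were male C57BL/6 by their labels, C57BL/6 J in the study's methods. Susceptible mice were 8 weeks old when defeat began, met an aggressive mouse for 10 min on each of 10 days, and then avoided a social target. Resilient mice (3 arrays per side) went through the same defeats and kept a social preference. Non-stressed control mice (2 arrays per side) were housed in like cages without defeat. Left and right mPFC were dissected separately 1 day after the social test and frozen, and equal amounts of RNA from individual tissues were pooled before hybridization, with 7 mice named in the labels of each group. The study's methods give the same number for susceptible mice and a larger one for resilient and control mice. The spread between arrays of 1 group is therefore technical or at most that between pools, and p values are measured against it. Left and right tissue came from the same mice, but nothing states which left and right arrays belong together.

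The mPFC sets social and emotional behavior through long-range excitatory neurons under the control of several kinds of inhibitory interneurons. When a neuron fires, calcium entry and kinase signaling switch on immediate early genes within minutes, among them the Fos, Jun and Egr transcription factors and the dendritic protein Arc. These are followed by late response genes such as Bdnf. Neuropeptides mark subtypes of neurons, Vip and Sst those of separate interneuron classes and Pdyn the source of dynorphin. Receptors for dopamine, serotonin, acetylcholine and orexin carry the input of brainstem and hypothalamic systems that set arousal and mood.

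Mean signals ran from 380 to 466 on the 3 susceptible left arrays and from 402 to 502 on the 3 susceptible right arrays, with 13850 to 14163 and 13843 to 14261 of the 25697 probes detected. Across all 16 arrays these values were 376 to 567 and 13648 to 14397. The tissue label was checked against neuronal markers, of which 9 of 12 on the array were detected on all 6 arrays, while none of 9 choroid plexus markers was and 4 of these were detected on no array. Summed signals of the neuron markers overlapped between sides, at 66410 to 69750 in the left mPFC and 67030 to 69170 in the right mPFC. Summed signals of layer and myelin markers did not overlap. They were 3961 to 4052 left and 2666 to 2804 right for layer 2/3, 10210 to 10570 left and 10920 to 11560 right for layer 5, and 9995 to 10420 left and 14590 to 15130 right for layers 6 and 6b. They were 40150 to 40400 left and 58090 to 58790 right for oligodendrocytes, and 3196 to 3248 left and 2313 to 2369 right for meningeal fibroblasts. Of the 10 layer 5 genes only 1 passed the test described below, and their median left minus right difference was -0.05 on the log2 scale. Control sums also lay apart, but the other way round, for layer 2/3 (3448 to 3475 left, 3636 to 3684 right). The same held there for layers 6 and 6b (11390 to 11470 left, 10420 to 10530 right). It also held for oligodendrocytes (55950 to 56870 left, 51820 to 52000 right) and meningeal fibroblasts (2605 to 2628 left, 2868 to 2939 right). Layer 5 sums overlapped in control mice, and those of all 5 lists overlapped in resilient mice. The 67 measured genes of these 5 lists are left out of what follows. The part of layer, myelin and meningeal content in the differences described here was not tested. On arrays of pooled tissue, fewer cells of a type and less RNA per cell cannot be told apart.

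To determine which other genes differed between the hemispheres, log2 L/R was computed by subtracting the mean of the 3 right arrays from the mean of the 3 left arrays on the log2 scale, so that positive values mean more signal in the left mPFC. A gene was called where limma's moderated test gave an adjusted p below 0.05, with the Benjamini-Hochberg adjustment made over 8419 genes. Of these, 439 (5.21%) were called in either direction. Of the 8352 genes outside the layer, myelin and meningeal lists, 222 (2.66%) were called higher in the left mPFC and 171 (2.05%) higher in the right mPFC. The 3 left arrays lay apart from the 3 right arrays for 219 of the 222 and 169 of the 171. Arrays lay apart for 20.1% of all 8419 genes, for 11.1% with the left higher and for 8.94% with the right higher. The called differences were small, with a median absolute log2 L/R of 0.28, a 1.22-fold difference, and a range of 0.19 to 0.89. Only 10 genes exceeded 0.5 on the left side and 7 on the right side. The result depended on how the arrays were scaled. When quantile normalization was replaced by setting all arrays to the same median, all 393 genes kept their sign and 274 had an unadjusted p below 0.05, but only 36 genes of any kind were called, and the median of all genes shifted to -0.05 from 0.0035. For that reason the calls below hold for quantile normalization unless it is said that they also held under median scaling. With cyclic loess normalization 418 genes were called, 412 of them among the 439. With the log2 values deposited by the authors 401 were called, 367 of them among the 439.

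Several genes that neuronal activity switches on were higher in the left mPFC. Of 14 measured immediate early genes, 7 were called with the left higher and 0 with the right higher, where 2.77% and 2.45% of all genes were called. The counts of the other lists below stand against these same shares. All lists were written with earlier results of these data known, so their counts and medians are descriptions only. The list had a median log2 L/R of 0.20, against 0.0035 over all genes, and 0.13 under median scaling, where none of its members was called. The promoters of the transcription factors Egr2, Fosb, Fos and Junb are printed as examples of those called higher in the left mPFC. The promoter of Sst, a gene that moved the other way, and that of Ciart, a clock gene, are printed for comparison. The windows of 300 bases come from RefSeq on build GRCm38.p6 and hold the start site with the sequence just before it. They lie at chr10:67537619-67537918 (plus strand, 1 of 5 windows for Egr2), chr7:19309996-19310295 (minus strand), chr12:85473640-85473939 (plus strand), chr8:84978699-84978998 (minus strand), chr16:23890795-23891094 (minus strand) and chr3:95882179-95882478 (minus strand). Capitals mark TGACG on either strand, the core of the cyclic AMP response element, in the first 5 sequences, and CACGTG, the E-box that clock proteins bind, in Ciart.
Egr2: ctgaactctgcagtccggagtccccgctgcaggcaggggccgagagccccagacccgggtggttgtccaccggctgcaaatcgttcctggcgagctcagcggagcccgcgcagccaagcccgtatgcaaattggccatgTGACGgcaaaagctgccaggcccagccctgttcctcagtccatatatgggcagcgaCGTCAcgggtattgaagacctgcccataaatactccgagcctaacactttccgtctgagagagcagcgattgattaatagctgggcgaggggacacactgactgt
Fosb: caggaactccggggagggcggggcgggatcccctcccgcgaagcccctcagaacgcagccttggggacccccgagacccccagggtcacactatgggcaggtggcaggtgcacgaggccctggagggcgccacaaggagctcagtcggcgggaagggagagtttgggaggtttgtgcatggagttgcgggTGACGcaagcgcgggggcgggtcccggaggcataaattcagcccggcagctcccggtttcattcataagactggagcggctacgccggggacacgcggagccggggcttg
Fos: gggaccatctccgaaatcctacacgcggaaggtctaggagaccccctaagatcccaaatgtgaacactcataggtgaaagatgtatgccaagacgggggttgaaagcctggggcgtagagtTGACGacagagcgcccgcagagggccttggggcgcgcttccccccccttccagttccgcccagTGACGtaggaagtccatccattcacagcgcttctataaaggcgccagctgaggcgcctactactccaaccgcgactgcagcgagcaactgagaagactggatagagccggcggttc
Junb: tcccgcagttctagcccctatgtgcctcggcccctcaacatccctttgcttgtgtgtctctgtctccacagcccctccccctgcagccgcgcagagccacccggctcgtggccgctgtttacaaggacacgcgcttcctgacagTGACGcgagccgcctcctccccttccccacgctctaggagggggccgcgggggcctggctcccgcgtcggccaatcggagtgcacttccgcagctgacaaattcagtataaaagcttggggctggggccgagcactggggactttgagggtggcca
Sst: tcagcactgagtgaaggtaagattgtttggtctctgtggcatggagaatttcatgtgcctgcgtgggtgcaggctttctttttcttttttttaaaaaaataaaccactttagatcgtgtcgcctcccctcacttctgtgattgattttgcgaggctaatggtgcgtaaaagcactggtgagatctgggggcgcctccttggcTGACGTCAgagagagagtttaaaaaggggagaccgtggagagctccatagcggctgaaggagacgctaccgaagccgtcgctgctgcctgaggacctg
Ciart: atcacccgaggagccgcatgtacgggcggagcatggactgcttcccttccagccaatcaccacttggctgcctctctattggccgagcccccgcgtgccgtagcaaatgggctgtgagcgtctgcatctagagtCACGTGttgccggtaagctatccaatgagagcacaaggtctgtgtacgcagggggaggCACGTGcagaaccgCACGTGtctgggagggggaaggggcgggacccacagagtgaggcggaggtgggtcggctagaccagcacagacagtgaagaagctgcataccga
TGACG occurred in 8 of the 10 windows of the 6 called immediate early genes that had one (Egr2, Egr4, Fos, Fosb, Junb and Klf2), of which 5 windows belong to Egr2. It occurred in 6 of the 8 windows of 6 called neuropeptide genes, whose calls went in both directions, and in 20.8% of all 32851 promoter windows. Arc had no window in the table. The full element TGACGTCA, which holds TGACG on both strands, was in none of the 10 windows and in that of Sst, against 1.79% of all windows. Matches of letters are a description of these windows and not evidence that a factor binds there.

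Egr2, a zinc finger transcription factor, had log2 signals of 8.47, 8.49 and 8.47 on the left arrays, against 7.86, 7.82 and 7.86 on the right arrays. Its left and right values were each within 0.05 of one another and far apart between sides, for a log2 L/R of 0.63 ± 0.07 (SE, adjusted p 2.0e-07). Egr4, of the same family, had 10.60, 10.37 and 10.29 in the left mPFC and 10.01, 9.88 and 9.87 in the right mPFC (0.50 ± 0.07, adjusted p 1.6e-05). Junb, a partner of the Fos proteins, had 9.56, 9.73 and 9.67 in the left mPFC and 9.16, 9.27 and 9.29 in the right mPFC (0.41 ± 0.07, adjusted p 6.1e-04). In all 3 genes every left array stood above every right array. Fosb, a splice form of which builds up under repeated stress, had 8.58, 8.41 and 8.52 in the left mPFC and 8.23, 8.01 and 8.06 in the right mPFC (0.41 ± 0.07, adjusted p 3.0e-04). Klf2, Fos and Arc had log2 L/R values of 0.34, 0.29 and 0.28. The call of Arc was lost without susceptible left replicate 2 or susceptible right replicate 3 (adjusted p 0.079 and 0.053 in limma). The remaining 7 members had values between -0.02 and 0.13, among them Npas4 at 0.12, Jund at -0.01 and Jun at -0.02. Egr1, of the same family as Egr2 and Egr4, had 0.06 (adjusted p 0.73).

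Across the 6 groups, Egr2 averaged 8.48 ± 0.01 in susceptible left and 7.85 ± 0.02 in susceptible right mPFC (SD, n = 3 each). It averaged 8.08 and 8.09 in resilient left and right mPFC and 8.33 and 8.23 in control left and right mPFC, so that the means of both other groups lay between the hemispheres of susceptible mice. Fosb, Junb, Egr4 and Klf2 showed the same order of means, with susceptible left highest and susceptible right lowest of the 6 groups. Fos and Arc did not. Fos averaged 9.88 in susceptible left and 9.59 in susceptible right mPFC, below the 10.16 and 10.07 of control left and right mPFC, and Arc averaged 10.70 and 10.42, below 11.10 and 11.02. The log2 L/R of Egr2 exceeded that of resilient mice by 0.64 (adjusted p 8.9e-05) and that of control mice by 0.53 (adjusted p 0.0028). For Fos and Arc neither difference passed the test (adjusted p 0.12 to 0.62). Of the 14 list members 4 passed both tests, among them Egr4 but not Junb.

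**Figure D1:**
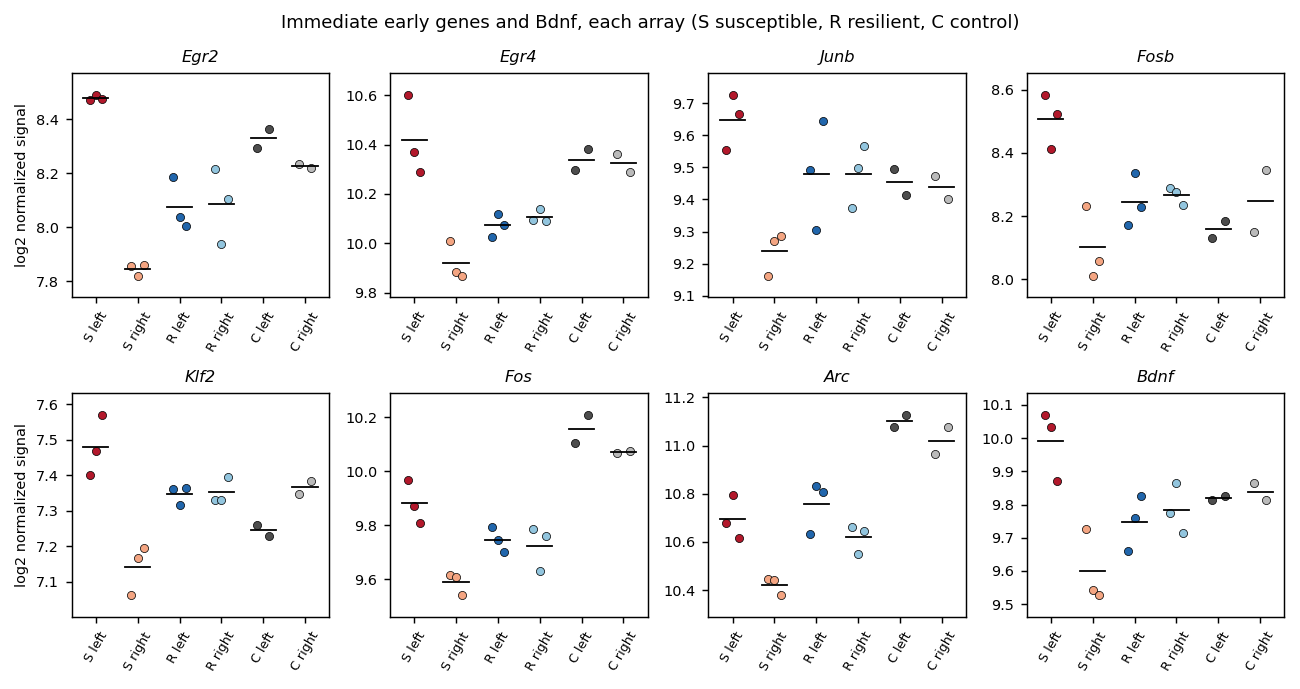
Log2 normalized signal (vertical axis) of 7 immediate early genes and Bdnf on each array, with the groups along the horizontal axis (S susceptible, R resilient, C control) and bars at group means. The susceptible left arrays lie above the susceptible right arrays in all 8 panels, for Egr2 at 8.47 to 8.49 against 7.82 to 7.86.

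Late response genes were mixed, with 4 of 20 called left and 1 called right. Bdnf, a growth factor of neurons released on activity, had 10.07, 10.03 and 9.87 in the left mPFC and 9.73, 9.54 and 9.53 in the right mPFC (log2 L/R 0.39 ± 0.07, adjusted p 3.7e-04), with no overlap. Ddit4l, an inhibitor of mTORC1 signaling, had 9.11, 9.04 and 9.05 on the left arrays and 8.51, 8.42 and 8.47 on the right arrays (0.60 ± 0.06, adjusted p 2.0e-07). Vgf and Mapk4, a secreted neuronal peptide precursor and an atypical MAP kinase, were called at 0.26 each. Rasl11b, a small GTPase, went the other way with 11.34, 11.40 and 11.36 in the left mPFC and 11.63, 11.68 and 11.68 in the right mPFC (-0.30 ± 0.06, adjusted p 0.0023). The pentraxins, secreted proteins that cluster glutamate receptors, pointed in opposite directions without a call, at 0.20 for Nptx2 (adjusted p 0.057) and -0.24 for Nptx1 (adjusted p 0.093). Dusp6, a phosphatase that shuts off ERK, was called at 0.29 ± 0.06 (adjusted p 0.0031). In kinase signaling, Prkg2, a cyclic GMP-dependent kinase, was higher on the left (0.35 ± 0.07, adjusted p 0.0028) and Pde8a, a phosphodiesterase that breaks down cyclic AMP, higher on the right (-0.43 ± 0.09, adjusted p 0.0015).

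Neuropeptide genes were lateralized in both directions. Of 16 measured precursors, 5 were called higher in the left mPFC and 2 in the right, and the median was near 0 at -0.05. Vip, the peptide of interneurons that inhibit other interneurons, had 10.88, 10.85 and 10.75 on the left arrays and 10.28, 10.28 and 10.31 on the right arrays (log2 L/R 0.53 ± 0.06, adjusted p 9.6e-07). The left arrays were all higher, and the difference from the laterality of resilient mice was 0.49 and from that of control mice 0.54 (adjusted p 0.0011 for each). Pdyn, the dynorphin precursor, had 10.07, 9.86 and 9.93 in the left mPFC and 9.49, 9.55 and 9.50 in the right mPFC (0.44 ± 0.06, adjusted p 2.2e-05). Adcyap1, the precursor of the stress-linked peptide PACAP, had 8.78, 8.59 and 8.81 on the left arrays, above all right arrays, which lay between 8.36 and 8.49 (0.32 ± 0.07, adjusted p 0.0039). Cck was called at 0.24. Its call was lost without susceptible left replicate 1 or susceptible right replicate 1 (adjusted p 0.076 and 0.072 in limma). Sst, the peptide of dendrite-targeting interneurons, was higher in the right mPFC, with 12.60, 12.68 and 12.36 on the left arrays and 12.97, 12.87 and 12.76 on the right arrays (-0.32 ± 0.08, adjusted p 0.0082). Its call was lost without susceptible left replicate 3 or susceptible right replicate 1 (adjusted p 0.099 and 0.073 in limma). Tac1, which encodes substance P, had -0.19 (adjusted p 0.043), a call lost without any 1 of 11 arrays, namely all 6 susceptible arrays, all 4 control arrays and resilient left replicate 2 (adjusted p 0.051 to 0.21). Npy, Cort and Trh were not called, at -0.09, -0.18 and -0.14.

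The interneuron list shares Vip, Cck and Sst with the neuropeptides, and its other called genes were Reln and Calb2. Reln and Calb2, an extracellular matrix protein and a calcium-binding protein found in several interneuron classes, were called higher on the left. Reln had 10.84, 10.96 and 10.92 in the left mPFC and 10.57, 10.58 and 10.49 in the right mPFC (log2 L/R 0.36 ± 0.06, adjusted p 2.3e-04). Calb2 had 8.63, 8.68 and 8.60 in the left mPFC and 8.35, 8.11 and 8.34 in the right mPFC (0.37 ± 0.07, adjusted p 0.0014). Genes shared by all or most interneurons were not called, at -0.04 for Gad1, which makes GABA, and -0.11 for Slc32a1, which loads it into vesicles, and Pvalb had -0.17 (adjusted p 0.17). Of 13 measured interneuron genes 4 were called left and 1 right, and 3 in all without susceptible right replicate 1, where Cck and Sst lost their calls. Their summed signals were 32450 to 33330 in the left mPFC and 33000 to 34090 in the right mPFC and overlapped, whereas the layer 2/3 sums did not, and the part of layer content was not tested.

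**Figure D2:**
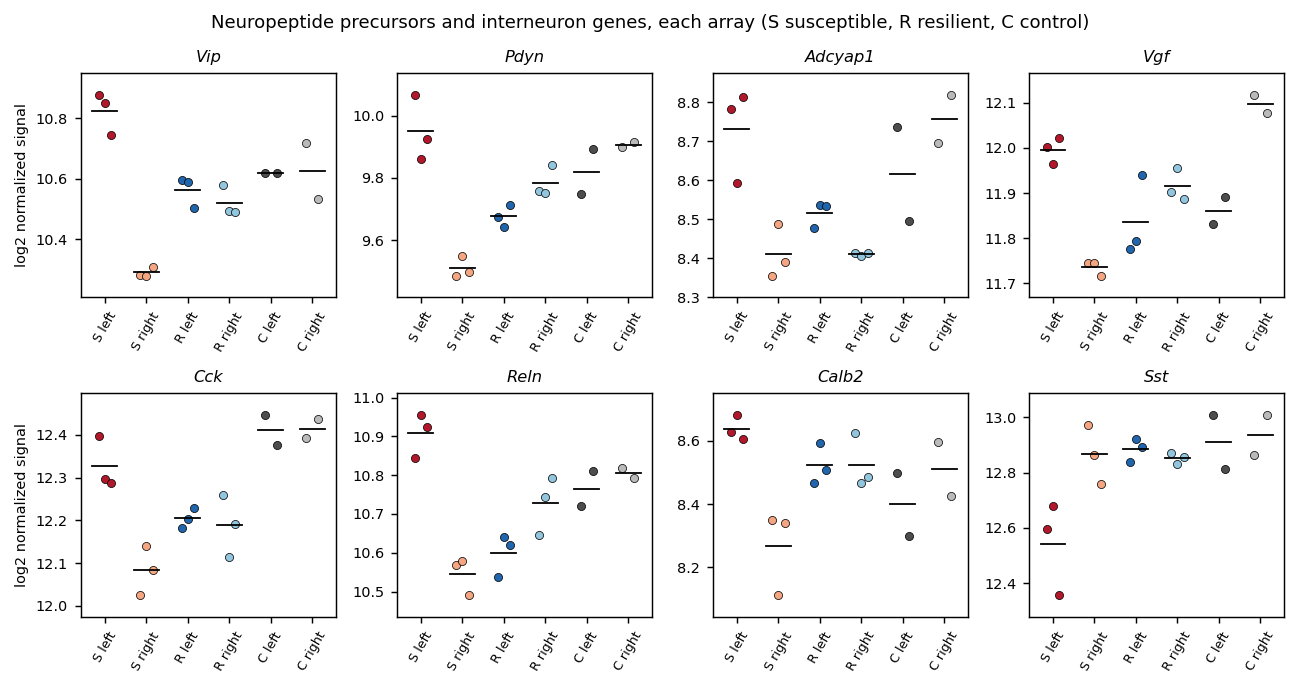
Log2 normalized signal of neuropeptide and interneuron genes on each array, with groups along the horizontal axis and bars at group means. Susceptible left arrays lie above susceptible right arrays for Vip (10.75 to 10.88 against 10.28 to 10.31) and the other left-higher genes, and below them for Sst (12.36 to 12.68 against 12.76 to 12.97).

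Several receptors for modulatory transmitters were higher in the right mPFC. Of 11 measured receptors for monoamines and acetylcholine, 4 were called, all higher on the right, and the median log2 L/R was -0.13 (-0.20 under median scaling, where none was called). Htr1f, a serotonin receptor, had 8.09, 8.30 and 8.25 on the left arrays and 8.71, 8.49 and 8.66 on the right arrays (-0.41 ± 0.07, adjusted p 2.2e-04). Drd1, the D1 dopamine receptor, had 8.66, 8.66 and 8.63 in the left mPFC and 9.02, 8.98 and 8.93 in the right mPFC (-0.33 ± 0.06, adjusted p 0.0014). Neither gene's arrays overlapped between sides. Chrna5, a nicotinic receptor subunit, had 6.88, 6.91 and 6.74 in the left mPFC and 7.19, 7.09 and 7.15 in the right mPFC (-0.30 ± 0.07, adjusted p 0.0050). This gene was dim, and its value ran from -0.63 to -0.18 over the 28 alternatives described below. Chrm2, a muscarinic receptor, had 7.24, 7.26 and 7.37 in the left mPFC and 7.54, 7.55 and 7.63 in the right mPFC (-0.28 ± 0.06, adjusted p 0.0033). The 7 others lay between -0.17 and 0.14, with Htr1a at -0.12 (adjusted p 0.38). Hcrtr1, the orexin receptor 1, had 7.52, 7.46 and 7.60 on the left arrays and 8.08, 8.05 and 7.92 on the right arrays (-0.49 ± 0.07, adjusted p 1.7e-05). Its left and right arrays did not overlap.

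Among receptors for fast transmitters, Glra2, a subunit of the glycine receptor channel, had 9.61, 9.50 and 9.40 in the left mPFC and 10.03, 10.002 and 9.95 in the right mPFC (log2 L/R -0.49 ± 0.07, adjusted p 3.8e-05), without overlap. Of 8 AMPA, NMDA and kainate receptor subunits 1 was called, Grik1 at -0.21 (adjusted p 0.048). This call was lost without any 1 of 12 arrays, namely all 4 control arrays, resilient left replicates 1, 2 and 3, resilient right replicate 3, susceptible left replicates 1 and 2 and susceptible right replicates 1 and 3 (adjusted p 0.052 to 0.24). None of 6 GABA receptor subunits and neither metabotropic glutamate receptor passed, with values between -0.13 and 0.08.

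Several right-higher genes are known as markers of striatal projection neurons and are also found in cortex. Scn4b, a sodium channel beta subunit, had 9.39, 9.50 and 9.30 in the left mPFC and 9.89, 9.95 and 9.997 in the right mPFC (log2 L/R -0.55 ± 0.06, adjusted p 1.3e-06, and 0.014 under median scaling). Ppp1r1b, which encodes the dopamine-signaling protein DARPP-32, had 10.03, 10.06 and 10.16 in the left mPFC and 10.51, 10.60 and 10.53 in the right mPFC (-0.46 ± 0.06, adjusted p 1.6e-05, and 0.018 under median scaling). Rgs9, which ends G protein signals, had 8.72, 8.93 and 8.68 in the left mPFC and 9.11, 9.15 and 9.17 in the right mPFC (-0.37 ± 0.07, adjusted p 4.5e-04). With Drd1 and Tac1 they make 5 of 11 striatal genes called higher on the right. Others of the list were not, with Gng7 at 0.22, Rxrg at 0.20, Pde10a at 0.04 and Rarb at -0.05. Summed signals of the 11 were 7118 to 7460 in the left mPFC and 7780 to 8109 in the right mPFC, without overlap, and the part of striatal tissue or of deep layers was not tested. In resilient mice the same sums were 8061 to 8917 left and 7741 to 8069 right.

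**Figure D3:**
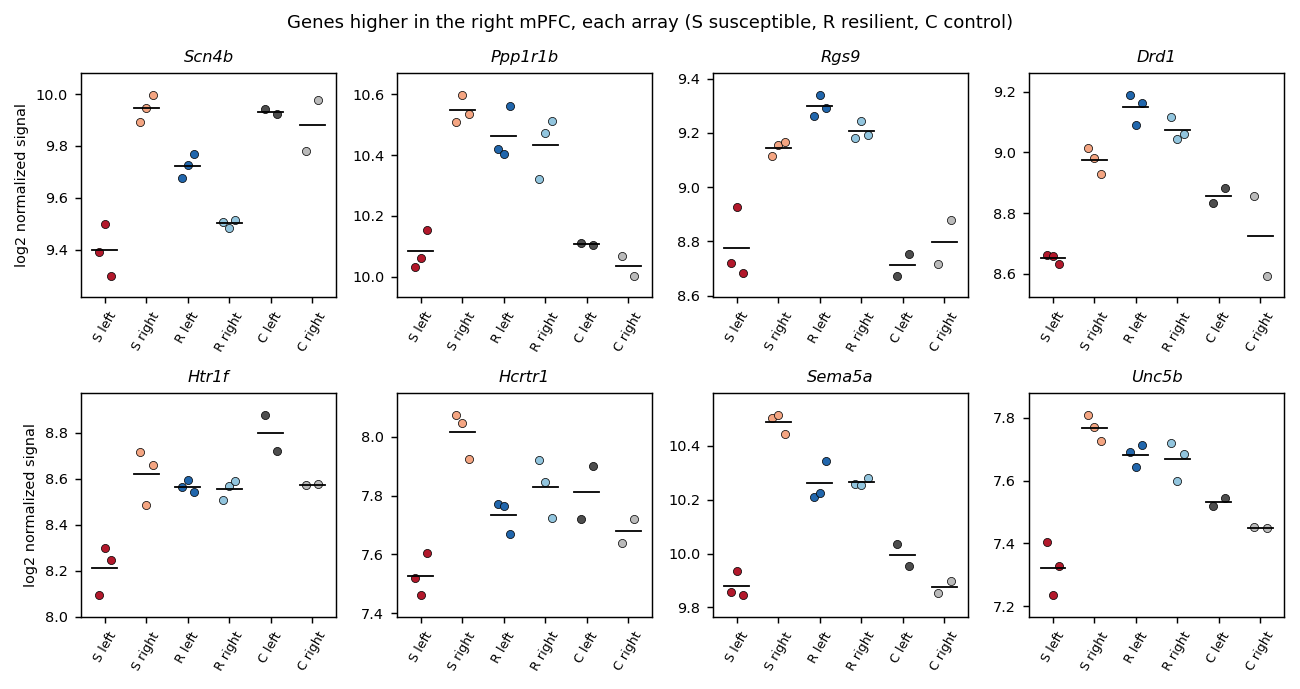
Log2 normalized signal of 8 genes higher in the right mPFC, on each array, with groups along the horizontal axis and bars at group means. Susceptible right arrays lie above susceptible left arrays in every panel, for Scn4b at 9.30 to 9.50 left and 9.89 to 9.997 right, and the means of the sides lie closer together in resilient and control mice.

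Calcium-handling genes were higher in the left mPFC where they were called. Tnnc1, a troponin that binds calcium, had 9.46, 9.49 and 9.30 on the left arrays and 8.62, 8.52 and 8.44 on the right arrays, the widest gap of any gene outside the marker lists (log2 L/R 0.89 ± 0.07, adjusted p 1.7e-09, and 0.0036 under median scaling). Its mean was 9.42 ± 0.10 in susceptible left and 8.53 ± 0.09 in susceptible right mPFC (SD, n = 3 each), 9.11 and 9.21 in resilient left and right, and 9.33 and 9.43 in control left and right mPFC, so that the susceptible right side stood apart. Hpca, a neuronal calcium sensor, had 12.55, 12.49 and 12.49 in the left mPFC and 12.13, 12.22 and 12.19 in the right mPFC (0.33 ± 0.06, adjusted p 5.7e-04). Efcab1, an EF-hand protein, had 0.49 ± 0.06 (adjusted p 7.2e-06). With Calb2 these were 4 of 17 calcium sensor genes, the other 13 not being called, where 2.77% of all genes were called left. This list, with Tnnc1 and Efcab1 in it, was like the others written with earlier results of these data known, so nothing is read from the count. Of 5 copines, proteins that move to membranes when calcium rises, 3 were called higher on the left. Cpne4 had 10.41, 10.42 and 10.28 in the left mPFC and 9.93, 9.94 and 9.77 in the right mPFC (0.49 ± 0.06, adjusted p 8.1e-06), Cpne6 had 0.48 ± 0.06 (adjusted p 7.0e-06) and Cpne9 0.38 ± 0.06 (adjusted p 1.2e-04). Cpne8 and Cpne2 were not called, at 0.18 and -0.12. Both Cpne4 and Cpne6 were highest in susceptible left and lowest in susceptible right mPFC of the 6 groups.

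Among channels, Cacng3, a subunit that accompanies AMPA receptors and is counted with the calcium channels, had 9.29, 9.33 and 9.15 in the left mPFC and 8.80, 8.95 and 8.82 in the right mPFC (log2 L/R 0.40 ± 0.07, adjusted p 4.0e-04). It leaned the other way in control mice, at -0.28. The T-type channel genes Cacna1g and Cacna1h had 0.26 each. Both calls were lost without susceptible left replicate 1 or 2 or susceptible right replicate 1, that of Cacna1g also without right replicate 2 and that of Cacna1h also without right replicate 3 (adjusted p up to 0.13 and 0.14 in limma), and 1 other probe of Cacna1g had the other sign. Kcna1, a potassium channel of axons, was higher in the right mPFC, with 9.97, 9.77 and 9.82 left and 10.26, 10.17 and 10.20 right (-0.35 ± 0.06, adjusted p 4.9e-04). The neurofilament genes of large axons were also higher on the right. Nefh had 8.45, 8.38 and 8.44 in the left mPFC and 8.69, 8.91 and 8.84 in the right mPFC (-0.39 ± 0.07, adjusted p 4.2e-04). Nefm had 9.68, 9.88 and 10.003 in the left mPFC and 10.46, 10.21 and 10.21 in the right mPFC (-0.44 ± 0.10, adjusted p 0.0099), a call lost without susceptible left replicate 1 or susceptible right replicate 1 (adjusted p 0.081 and 0.091 in limma). Ina, another neurofilament gene, had -0.24 (adjusted p 0.052). Marcksl1, an actin-binding substrate of protein kinase C, was higher on the left, with 9.14, 8.92 and 9.12 left and 8.62, 8.40 and 8.54 right (0.54 ± 0.07, adjusted p 1.4e-05).

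Genes of vesicle release pointed both ways. Of 24 measured, 2 were called left and 3 right, with a median log2 L/R of -0.04. Rims3 was called higher on the left (0.35 ± 0.07, adjusted p 0.0012) and Rims1, of the same family of active zone proteins, higher on the right (-0.32 ± 0.07, adjusted p 0.0027). The other called genes were Doc2b on the left and Cplx2 and Rab3b on the right. Their calls were lost without any 1 of 3, 10 and 4 arrays, in that order.

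Among guidance genes the largest differences were toward the right. Sema5a, a transmembrane semaphorin, had 9.86, 9.93 and 9.84 on the left arrays and 10.50, 10.52 and 10.44 on the right arrays (log2 L/R -0.61 ± 0.06, adjusted p 6.0e-08, and 0.0064 under median scaling). Unc5b, a netrin receptor, had 7.40, 7.23 and 7.33 in the left mPFC and 7.81, 7.77 and 7.73 in the right mPFC (-0.45 ± 0.06, adjusted p 9.7e-06). Plxnb3, a semaphorin receptor known from oligodendrocytes, had -0.35 ± 0.06 (adjusted p 6.1e-04). On the left, Lingo2, a leucine-rich repeat membrane protein, had 9.19, 9.34 and 9.18 on the left arrays and 8.93, 8.82 and 8.88 on the right arrays (0.36 ± 0.07, adjusted p 6.5e-04). Of 42 guidance genes, 3 were called left and 4 right, with a median of -0.02. Sema5a averaged 9.88 in susceptible left and 10.49 in susceptible right mPFC, 10.26 on either side in resilient mice, and 9.995 and 9.88 in control left and right mPFC. Cdh8, an adhesion protein of the cadherin family, had 8.68, 8.52 and 8.63 in the left mPFC and 8.17, 8.19 and 8.23 in the right mPFC (0.41 ± 0.06, adjusted p 3.8e-05). Tiam1, an activator of the GTPase Rac in dendritic spines, had 10.74, 10.71 and 10.70 in the left mPFC and 10.30, 10.41 and 10.20 in the right mPFC (0.41 ± 0.06, adjusted p 3.6e-05). Arhgap25, a GTPase activator that turns Rac off, was higher on the right (-0.42 ± 0.06, adjusted p 3.7e-05). Itgb4, an integrin that binds laminin, had 7.43, 7.49 and 7.40 in the left mPFC and 7.87, 8.06 and 8.04 in the right mPFC (-0.55 ± 0.06, adjusted p 9.6e-07).

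Developmental regulators were lateralized both ways. Of 87 measured transcription factors 11 were called left and 7 right, of which 10 and 6 lay outside the marker lists. Nr2f1, which patterns cortical areas, had 12.03, 12.03 and 12.14 in the left mPFC and 11.60, 11.70 and 11.56 in the right mPFC (log2 L/R 0.45 ± 0.07, adjusted p 2.1e-04). Tle1, a Groucho corepressor, had 9.70, 9.75 and 9.75 in the left mPFC and 9.31, 9.37 and 9.38 in the right mPFC (0.38 ± 0.06, adjusted p 6.3e-05). Otx1, a homeobox factor of deep-layer neurons, had 9.22, 9.06 and 9.07 in the left mPFC and 9.54, 9.60 and 9.52 in the right mPFC (-0.43 ± 0.07, adjusted p 8.3e-05). Cdkn1c, an inhibitor of cell division that also acts in neuronal development, had 8.55, 8.69 and 8.55 in the left mPFC and 7.97, 7.96 and 8.04 in the right mPFC (0.61 ± 0.07, adjusted p 3.4e-07). Evc2, a ciliary protein of Hedgehog signaling, had 8.23, 8.23 and 8.41 in the left mPFC and 7.57, 7.67 and 7.68 in the right mPFC (0.65 ± 0.06, adjusted p 9.0e-08). Pdzrn3, a ubiquitin ligase with PDZ domains, had 10.29, 10.22 and 10.32 in the left mPFC and 9.62, 9.57 and 9.69 in the right mPFC (0.65 ± 0.08, adjusted p 1.5e-06). In all 6 genes the arrays of the sides lay apart. Of 53 growth factors and binding proteins, 7 outside the marker lists were called left, among them Bdnf, Dact2 (0.44 ± 0.08, adjusted p 3.5e-04), a modulator of Wnt and TGF-beta signals, and Fstl4 (0.35 ± 0.07, adjusted p 0.0012), and 2 were called right, the ligands Fgf10 (-0.29) and Wnt2 (-0.26). The call of Wnt2 was lost without susceptible left replicate 1 or susceptible right replicate 2 or 3 (adjusted p up to 0.078).

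Clock genes, which cycle over the day in most cells, were called on the left only. Of 18 measured, 6 were called, and the median log2 L/R was 0.09, but 0.01 under median scaling, where none was called. Bhlhe40, a repressor that feeds back on the clock, had 11.67, 11.66 and 11.48 in the left mPFC and 11.32, 11.04 and 11.15 in the right mPFC (0.43 ± 0.07, adjusted p 3.7e-04). Per2 had 10.45, 10.33 and 10.38 in the left mPFC and 10.11, 10.12 and 10.03 in the right mPFC (0.30 ± 0.06, adjusted p 0.0031). Ciart, a clock-controlled repressor whose printed promoter held 3 E-boxes, had 8.47, 8.36 and 8.46 in the left mPFC and 8.09, 8.24 and 8.13 in the right mPFC (0.27 ± 0.06, adjusted p 0.0056). At least 1 E-box was in 2 of the 6 windows of the 4 called clock genes that had one (those of Ciart and Per1), and in 7.15% of all windows. Per1 had 0.31 ± 0.08 (adjusted p 0.016) and lost its call without susceptible left replicate 3 or susceptible right replicate 1 or 2 (adjusted p 0.12, 0.0502 and 0.084 in limma). Arntl and Dbp had 0.27 each, and each lost its call without susceptible left replicate 1 or 3 or susceptible right replicate 1 or 2 (adjusted p up to 0.16 and 0.13). Clock itself and Nr1d2 were not called, at -0.20 and -0.13. Bhlhe40 and Per1 are also induced by activity and by hormones. Of 15 glucocorticoid receptors and targets, 3 were called left, Per1, Sult1a1 (0.25) and Dusp1 (0.24, a call lost without susceptible left replicate 2 or 3 or susceptible right replicate 2 or 3, adjusted p up to 0.091), while the widely used target genes Fkbp5, Tsc22d3 and Sgk1 had 0.02, -0.17 and -0.10 and were not called.

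**Figure D4:**
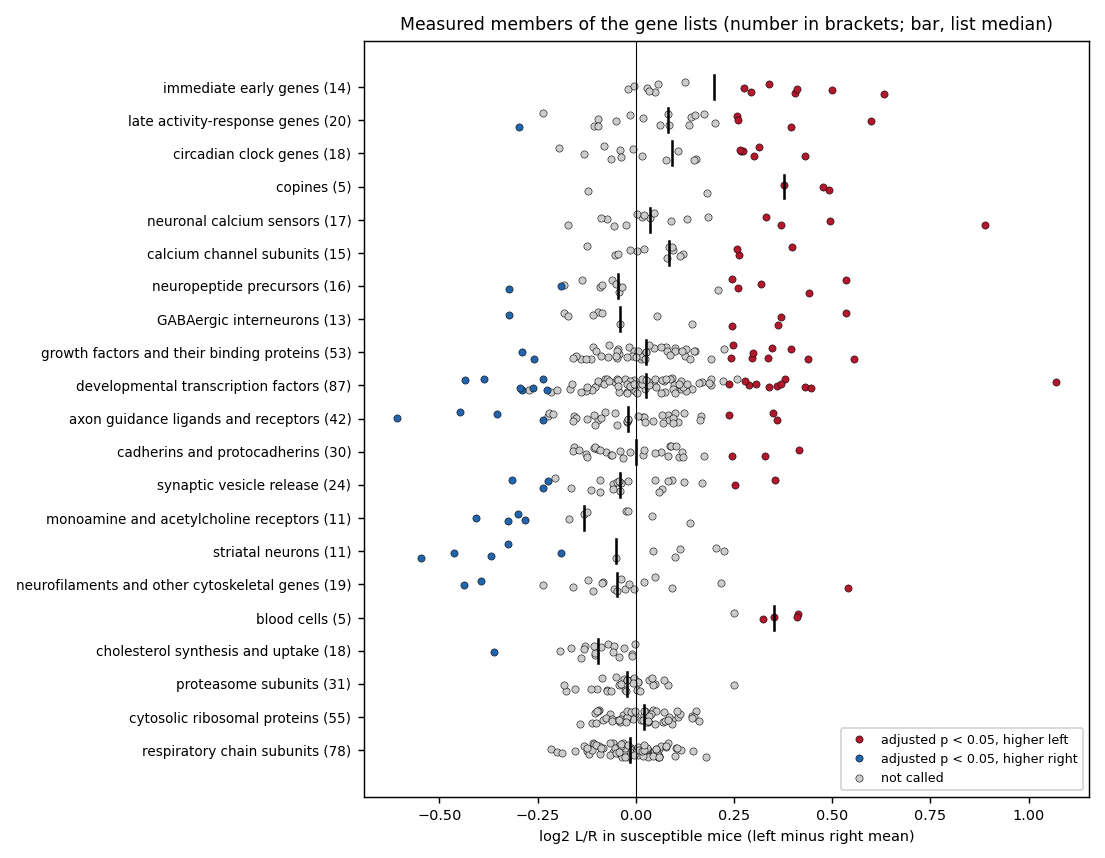
Log2 L/R in susceptible mice (horizontal axis) of the measured members of 21 gene lists, 1 point per gene, red where called higher left, blue where called higher right and grey where not called, with a bar at each list's median. Immediate early genes reach 0.63 with a median of 0.20, monoamine and acetylcholine receptors reach -0.41 with a median of -0.13, and ribosomal, proteasome and respiratory chain genes hold no called member.

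Genes of vessels, blood and glia gave further differences. Acta2, the actin of smooth muscle in vessel walls, had 8.59, 8.75 and 8.70 in the left mPFC and 8.18, 8.40 and 8.21 in the right mPFC (log2 L/R 0.42 ± 0.07, adjusted p 1.5e-04). Of 14 endothelial and mural genes 3 were called left, Acta2, Slc2a1 at 0.28 and Vwf at 0.21, but only Acta2 without susceptible left replicate 3 (adjusted p 0.056 for Slc2a1 and 0.21 for Vwf). The call of Vwf was also lost without any 1 of the 4 control arrays, resilient left replicate 1 or 2, susceptible left replicate 2 or susceptible right replicate 1 or 3. The list had summed signals of 5708 to 5829 left and 5245 to 5290 right. Of 5 measured blood cell genes 4 were called left. Hba-a1, a hemoglobin chain, had 13.24, 13.27 and 13.11 in the left mPFC and 12.93, 12.89 and 12.82 in the right mPFC (0.32 ± 0.07, adjusted p 0.0024). S100a8, of neutrophils, had 7.30, 7.23 and 7.26 in the left mPFC and 6.91, 6.90 and 6.74 in the right mPFC (0.41 ± 0.06, adjusted p 2.7e-05). This gene was dim, and its value ran from 0.25 to 0.83 over the 28 alternatives described below. Lyz1, a lysozyme, had 0.41 ± 0.06 (adjusted p 3.7e-05). In resilient mice S100a8 and Lyz1 had 0.53 and 0.33, and the difference between susceptible and resilient laterality did not pass (adjusted p 0.62 and 0.76). Blood sums were 9671 to 10680 in susceptible left and 7835 to 8482 in susceptible right mPFC, 7364 to 8192 and 7002 to 7971 in resilient left and right mPFC, and 5072 to 5129 and 4834 to 5025 in control left and right mPFC. The part of residual blood and vessels in the other differences was not tested. Astrocyte sums were higher on the left too (38160 to 38300 left, 34660 to 35850 right). This was also so in resilient mice (38260 to 38750 left, 36200 to 37700 right). In control mice they were higher on the right (38740 to 39380 left, 39420 to 39590 right). In susceptible mice 2 of 15 astrocyte genes were called, Mfge8 at 0.25 and S100b at 0.23. Neither was called without susceptible left replicate 3 or susceptible right replicate 2 (adjusted p 0.080 to 0.22), and Mfge8 also lost its call without susceptible left replicate 2 or right replicate 1 and S100b without susceptible right replicate 3 or control left replicate 2. Of 12 microglial genes 1 was called (8.33%, against 5.21% of all genes), the complement gene C1qc at 0.26. Its call was lost without susceptible left replicate 1 or susceptible right replicate 3 (adjusted p 0.072 and 0.087 in limma). Enpp6, a choline phosphodiesterase of newly forming oligodendrocytes, had 7.56, 7.49 and 7.68 in the left mPFC and 8.24, 8.10 and 8.14 in the right mPFC (-0.59 ± 0.06, adjusted p 3.1e-07). Slc44a1, a choline transporter, had 9.09, 9.12 and 9.13 in the left mPFC and 9.70, 9.65 and 9.61 in the right mPFC (-0.54 ± 0.06, adjusted p 1.7e-07). Both are also rich in oligodendrocytes, whose markers were higher on the right, and in both the susceptible left mPFC had the lowest mean of the 6 groups.

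In metabolism and transport, Car4, a membrane-bound carbonic anhydrase, had 9.33, 9.29 and 9.26 in the left mPFC and 8.68, 8.66 and 8.63 in the right mPFC (log2 L/R 0.64 ± 0.07, adjusted p 2.6e-07). Lpl, which releases fatty acids from lipoproteins, had 9.42, 9.44 and 9.39 in the left mPFC and 9.08, 9.04 and 8.93 in the right mPFC (0.40 ± 0.06, adjusted p 5.4e-05). Msmo1, an enzyme of cholesterol synthesis, had 10.64, 10.52 and 10.56 in the left mPFC and 10.92, 10.92 and 10.96 in the right mPFC (-0.36 ± 0.06, adjusted p 4.1e-04). It was the only called gene of 18 in that pathway, which is 5.56%, against 5.21% of all genes. All 18 had values below 0, with a median of -0.10, and this shift was not tested. Slc47a1, an exporter of organic cations, had 7.12, 7.20 and 7.27 in the left mPFC and 6.64, 6.75 and 6.85 in the right mPFC (0.45 ± 0.06, adjusted p 2.1e-05, and 0.024 under median scaling). Its signals were dim, and its value ran from 0.27 to 0.97 over the 28 alternatives described below. No gene was called among 78 respiratory chain subunits, 55 ribosomal proteins, 31 proteasome subunits or 70 chromatin-modifying enzymes, whose medians lay between -0.02 and 0.02. Limma's unadjusted p was below 0.05 for 5, 4, 3 and 5 genes of these lists in the same order.

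To determine whether the laterality was one of susceptible mice, their log2 L/R was set against that of the other groups in limma's direct test. Of the 393 genes called outside the marker lists, 152 differed from control mice, 128 from resilient mice and 93 from both, where 2.63%, 2.15% and 1.54% of all 8419 genes did. The 393 were chosen on the susceptible log2 L/R that enters both differences, and both share the susceptible arrays, so nothing is read from these shares. Left against right, 2 of the 393 were called in resilient mice and 1 in control mice. Among all genes, 0.0356% and 0.0119% were called there. A gene without a call in these groups is not shown to lack a difference, and control mice had 2 arrays per side. Of the 96 genes chosen by a rule for naming, 43 differed from both groups, led by Tnnc1, whose log2 L/R exceeded those of resilient and control mice by 0.99 each. For 31 of the 96 neither difference passed, among them Dusp6, Lingo2, Sst and Chrna5, so that no difference in laterality from the other mice was shown for these. Of these 43, 33 kept both differences when control left replicate 1 was left out and 36 when it was control left replicate 2. The numbers were 35 for control right replicate 1 and 34 for control right replicate 2. Both differences held for 25 genes whichever single array of the 16 was left out. Prss35, a serine protease-like protein, showed the largest right-higher value, with 8.16, 8.03 and 8.11 in the left mPFC and 8.74, 8.69 and 8.82 in the right mPFC (-0.65 ± 0.08, adjusted p 5.6e-06). In resilient mice it had -0.07, and in control mice 0.07.

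**Figure D5:**
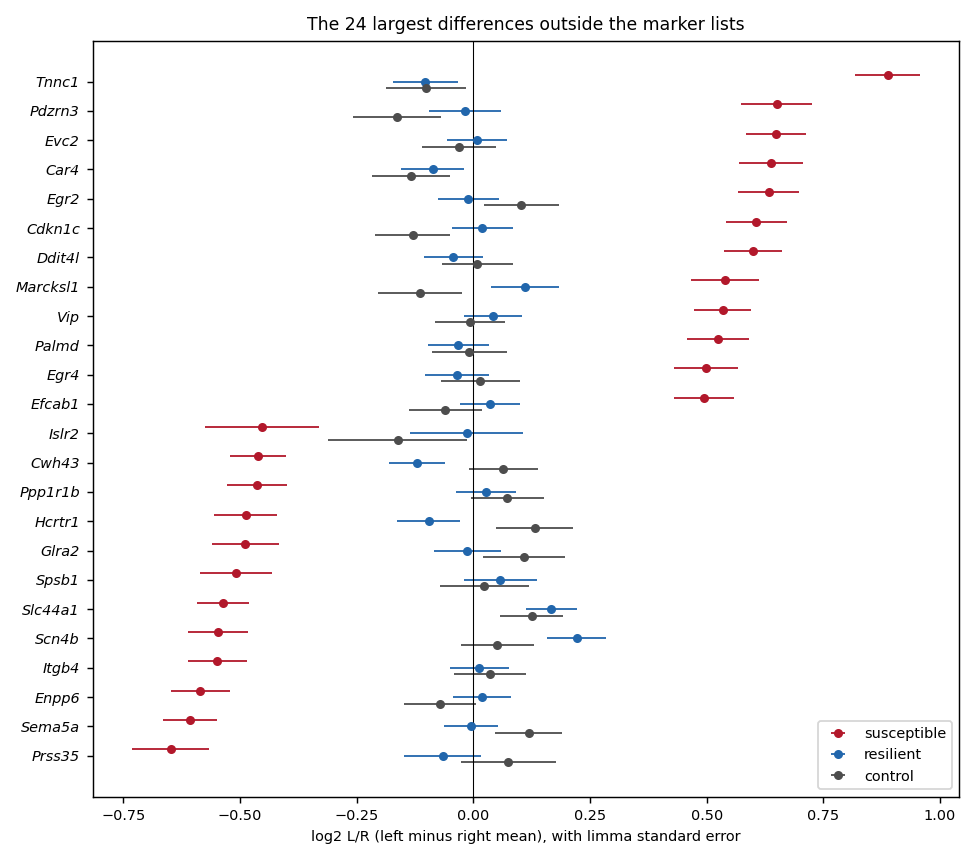
Log2 L/R with its standard error (horizontal axis) for the 24 genes with the largest differences outside the marker lists, in susceptible (red), resilient (blue) and control mice (grey). Susceptible values reach 0.89 for Tnnc1 and -0.65 for Prss35, and none of the 24 exceeds 0.22 in size in resilient mice or 0.16 in control mice.

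Of the 96 genes, 11 were called under all 28 alternatives tried, median scaling included. These were Tnnc1, Evc2, Cdkn1c and Slc47a1 on the left and Sema5a, Enpp6, Itgb4, Scn4b, Slc44a1, Spsb1 and Ppp1r1b on the right. Spsb1, a SOCS-box protein, had 9.02, 9.06 and 9.08 in the left mPFC and 9.53, 9.55 and 9.60 in the right mPFC (log2 L/R -0.51 ± 0.08, adjusted p 6.2e-05). None of the 96 changed sign under any of them.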

How the data were processed

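Total RNA from pooled mPFC tissue was hybridized to Illumina MouseRef-8 v2 arrays with 25697 probes. The authors deposited non-normalized probe intensity values from GenomeStudio 1.0.6 (per the labels), each with a deposited detection score, here read as 1 minus the detection p. The authors also deposited log2 values made with lumi, whose version and normalization method are not given in the sources used here. Their medians were 7.2766 to 7.2779 over the 16 arrays and their values correlated with the log2 signals at r of 0.989 to 0.998, so they were not centred to 0, and they served as an alternative only.

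Intensities were log2 transformed and quantile normalized over all 16 arrays. Probes with a detection p up to 0.05 on all arrays were kept (11922, of which 700 without a gene symbol were left out), with the brightest probe per gene, leaving 8419 genes. Limma 3.58.1 in R 4.3.3 fitted 6 group means with moderated variances (residual df 10, prior df 16) and Benjamini-Hochberg adjustment over all genes. At an unadjusted p below 0.05, 1403 genes differed between sides in susceptible mice. Laterality was compared between conditions as the difference of log2 L/R. Scripts were tested on simulated data, and figures were drawn with matplotlib 3.10.9.

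The genes named by rule were, outside the layer, myelin and meningeal lists, the 12 called genes with the largest log2 L/R in each direction and up to 3 called genes per list, all with no overlap between left and right arrays, 96 in all. Genes named besides these were added after their values were seen, to complete the lists. Members and lists were chosen with earlier results of these data known. Alternatives covered the normalization, background, filters, probe choice, variance model, blocks and each array left out. The number of arrays limits the precision.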

Additional observations from a re-analysis of the deposited data

Results flagged for a closer look

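For 43 of the named genes the left-right difference of susceptible mice differed from those of control and of resilient mice, each by limma's direct test of the difference with Benjamini-Hochberg adjustment over 8419 genes. These genes were chosen on the susceptible log2 L/R that enters both differences. The values here are log2 L/R in susceptible mice minus log2 L/R in control mice. Among genes higher in the left mPFC they were 0.99 for Tnnc1, 0.81 for Pdzrn3, 0.77 for Car4, 0.74 for Cdkn1c, 0.68 for Cacng3, 0.68 for Evc2, 0.65 for Marcksl1, 0.62 for Slc47a1, 0.59 for Ddit4l, 0.56 for Cpne9, 0.56 for Cpne4, 0.55 for Efcab1 and 0.54 for Dact2. For the remaining left-higher genes they were 0.54 for Vip, 0.53 for Pdyn, 0.53 for Egr2, 0.53 for Palmd, 0.53 for Bhlhe40, 0.50 for Cpne6, 0.48 for Egr4, 0.44 for Nr2f1, 0.42 for Cdh8, 0.42 for Tiam1, 0.41 for Bdnf, 0.40 for Reln and 0.39 for Lpl. Among genes higher in the right mPFC they were -0.73 for Sema5a, -0.72 for Prss35, -0.66 for Slc44a1, -0.63 for Htr1f, -0.62 for Hcrtr1, -0.60 for Glra2, -0.60 for Scn4b, -0.58 for Itgb4, -0.55 for Kcna1, -0.54 for Ppp1r1b, -0.53 for Unc5b, -0.53 for Cwh43, -0.53 for Spsb1, -0.51 for Enpp6, -0.46 for Drd1, -0.43 for Arhgap25 and -0.39 for Otx1. The widest differences, of Tnnc1 and Pdzrn3 on the left and Sema5a and Prss35 on the right, passed without any single array. None of the 43 passed either of the tests under median scaling, although all 43 kept their sign.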

How the results depend on the processing

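In susceptible mice 439 genes were called left against right, 221 differed in laterality from control mice and 181 from resilient mice. Under median scaling these counts were 36 (11 higher left and 25 higher right, 30.6% left against 53.1% with quantile normalization), 11 and 1. With an added limit of 0.3 on the absolute log2 L/R, 213 remained. Without single arrays the counts were 318 to 458, 125 to 223 and 140 to 181. The count against control was 125 when control left replicate 1 was left out, 142 for control left replicate 2, 135 for control right replicate 1 and 140 for control right replicate 2.

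Of the 96 named genes, none changed sign in 28 alternatives, 85 lost their call under median scaling and 27 in some other alternative. The calls of Pcdh20, Scn3b, Vwf, Sytl2, Dnajc24, Arhgap15 and Grik1 were lost in over 10. For Islr2 the call was lost without susceptible left replicate 3 or susceptible right replicate 1 or 2 (adjusted p up to 0.24 in limma). The cause was not tested.

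Left and right arrays share replicate numbers that nothing ties to a pool. Deviations of same-numbered susceptible arrays from their group means correlated at 0.193, 0.174 and 0.092 over genes, and those of other numbers at -0.158 to -0.017. In resilient mice the values were 0.341, -0.02 and 0.059 for same numbers and -0.259 to 0.199 for other numbers. Because deviations cancel out within a group, positive same-number values force negative ones among the other numbers. With 2 control arrays per side all control values are 0.013 in size by construction. Nothing is read from these values on which arrays belong together. With a replicate block, 532 genes were called left against right, 257 differed from control and 232 from resilient mice, and 95 of the 96 named genes kept their call. With the first 8 arrays of the deposited table and the other 8 as blocks these counts were 528, 254 and 233. Signals near background limit the dim genes, which had to be detected on all 16 arrays.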
